A study of Mus musculus with 9 samples.

Results

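The PDZ-LIM genes encode adaptor proteins of the Z-disc, the structure that anchors the thin filaments of neighbouring sarcomeres in striated muscle. The family has 7 genes in mouse, Pdlim1, Pdlim2, Pdlim3, Pdlim4, Pdlim5, Pdlim7 and Ldb3, and they were read by name from the annotation of the array. A probe set was named for 6 of the 7, each with 1 probe set, out of 19505 named genes. Pdlim7 had none and was not analysed here. The 7 genes belong together by name and structure, but the family itself was chosen by the measured difference of Pdlim1 from control in each knockout. Those differences are therefore given as a description, and nothing is read from a threshold that Pdlim1 passes or misses against control.

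Each PDZ-LIM protein has a PDZ domain near its amino end, which binds alpha-actinin, the crosslinker of thin filaments at the Z-disc. At the other end, Pdlim1, Pdlim2, Pdlim3 and Pdlim4 have a single LIM domain and form the ALP group, whereas Pdlim5, Pdlim7 and Ldb3 have several and form the Enigma group. LIM domains bind other proteins, among them kinases, so the family is known for linking signalling proteins to actin filaments. In skeletal muscle, Pdlim3, Pdlim5 and Ldb3 are established Z-disc proteins, while Pdlim1 is also known from stress fibres of non-muscle cells.

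RNA came from whole tibialis anterior, a shin muscle made mostly of fast fibres, of C57/BL6 mice aged 2 months. The knockout of MCU (MCU-/-/MCUb+/+) lacks the pore of the mitochondrial calcium uniporter, and the knockout of MCUb (MCU+/+/MCUb-/-) lacks MCUb, a paralogue of MCU in that channel. Control mice carried both genes (MCU+/+/MCUb+/+). Each of the 3 genotypes was measured on 3 Clariom S mouse arrays. Whether the arrays of 1 genotype came from separate animals is not stated in the labels, so a p-value covers the spread between these arrays, in part perhaps technical. The labels give no Cre driver for either deletion and no litter, so litter and genotype cannot be told apart.

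Values are log2 levels as deposited, and a level of 1 probe set cannot be set against that of another. The background limit of each array was the 95th percentile of its 23 background sets and lay between 5.87 and 5.92. Mcu was low on all 3 arrays of its own knockout, at 6.80, 6.98 and 7.06, against 10.38 to 11.06 on the other 6 arrays, and Mcub was not analysed here. Between 45.3% and 45.9% of probe sets lay above background on each array. Control replicate 3 stood apart with the lowest mean correlation to the remaining arrays, 0.978, where other arrays reached up to 0.988. The Y-linked level, the mean of Uty and Kdm5d, was 7.24 to 7.80 on MCU knockout replicates 2 and 3 and MCUb knockout replicate 1. The controls and the remaining knockout arrays, 6 in all, had 3.01 to 3.89. All 10 skeletal muscle markers, Acta1, Ckm and Myh4 among them, were above background, and their summed log2 signal was 21.8 to 21.9 in MCU knockout, 21.8 to 21.9 in MCUb knockout and 21.6 to 21.9 in control.

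The promoters of Pdlim1 and Ldb3 are shown because Pdlim1 led to the choice of the family and had its largest differences from control, while Ldb3 is a structural Z-disc member whose groups overlapped. The sequences are RefSeq's for GRCm38.p6, written 5′ to 3′ on the strand of the gene, and cover the 250 bases before the start. That of Pdlim1 is chr19:40271617-40271866 on the minus strand, and that of Ldb3 is chr14:34588682-34588931, also on the minus strand. Capitals mark GC boxes (GGGCGG) in Pdlim1 and the SRF (CArG) box in Ldb3.

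Pdlim1 promoter: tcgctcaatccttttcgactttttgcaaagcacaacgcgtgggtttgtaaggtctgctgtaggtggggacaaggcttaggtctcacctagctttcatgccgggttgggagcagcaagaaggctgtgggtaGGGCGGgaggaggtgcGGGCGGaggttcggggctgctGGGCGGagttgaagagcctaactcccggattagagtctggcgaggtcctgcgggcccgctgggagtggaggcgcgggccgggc

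Ldb3 promoter: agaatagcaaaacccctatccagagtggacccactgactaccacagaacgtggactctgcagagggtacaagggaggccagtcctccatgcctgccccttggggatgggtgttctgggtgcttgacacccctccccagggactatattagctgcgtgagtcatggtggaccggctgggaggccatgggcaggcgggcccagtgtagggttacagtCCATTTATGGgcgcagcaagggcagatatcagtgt

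Both strands were searched for the GC box, the CArG box, the MEF2 site, the E-box (CANNTG) and the TATA box (TATAAA), and no matches overlapped in these promoters. The Pdlim1 window held 3 GC boxes, 120, 104 and 83 bases before the start, and none of the other motifs. Its GC content was 62.4%. The Ldb3 window held 1 CArG box, the DNA motif bound by serum response factor, 35 bases before the start shown. It held none of the others, at a GC content of 58.4%. Another annotated start of Ldb3 had the same CArG box 109 bases before it. Of 32851 promoters searched in the same window, 32.7% held a GC box and 1.47% a CArG box. E-boxes stood in 66.2%, TATA boxes in 12.4% and MEF2 sites in 2.92%. These matches describe the sequence and do not show that a factor binds there.

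Pdlim1, also called Elfin, binds alpha-actinin through its PDZ domain and is known to bring the kinase encoded by Stk35 to actin stress fibres. Its probe set, TC1900001484.mm.2 on chromosome 19, read 11.13, 10.52 and 11.13 in MCU knockout muscle. In MCUb knockout muscle it read 11.06, 11.90 and 11.24, against 12.77, 12.55 and 12.78 in control muscle. All 6 knockout arrays lay below all 3 control arrays, and the controls lay within a narrower band than either knockout. Of all probe sets, 7.33% lay below every control in MCU knockout and 7.02% in MCUb knockout.

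The Pdlim1 means were 10.93 ± 0.35 in MCU knockout, 11.40 ± 0.44 in MCUb knockout and 12.70 ± 0.13 in control (SD, n = 3 each). The difference from control was -1.78 for MCU knockout (standard error SE 0.25, 95% interval -2.33 to -1.22), or 3.43-fold lower. For MCUb knockout it was -1.30 (SE 0.25, 95% interval -1.86 to -0.75), or 2.47-fold lower. Both differences share the 3 control arrays. MCU and MCUb knockout differed from each other by -0.47 (95% interval -1.03 to 0.08), and their arrays overlapped (limma, adjusted p = 0.942). In whole muscle, fewer cells of a type and less RNA per cell cannot be told apart.

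The Pdlim1 levels were compared again without the arrays that stood apart. On the 6 arrays of low Y-linked level, Pdlim1 read 11.13 in MCU knockout and 11.90 and 11.24 in MCUb knockout, against 12.55 to 12.78 in control. The differences there were -1.57 for MCU knockout and -1.14 for MCUb knockout. With a Y-linked covariate in the fit they were -1.50 and -1.17 in the same order. Without control replicate 3 they were -1.74 and -1.27.

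**Figure D1:**
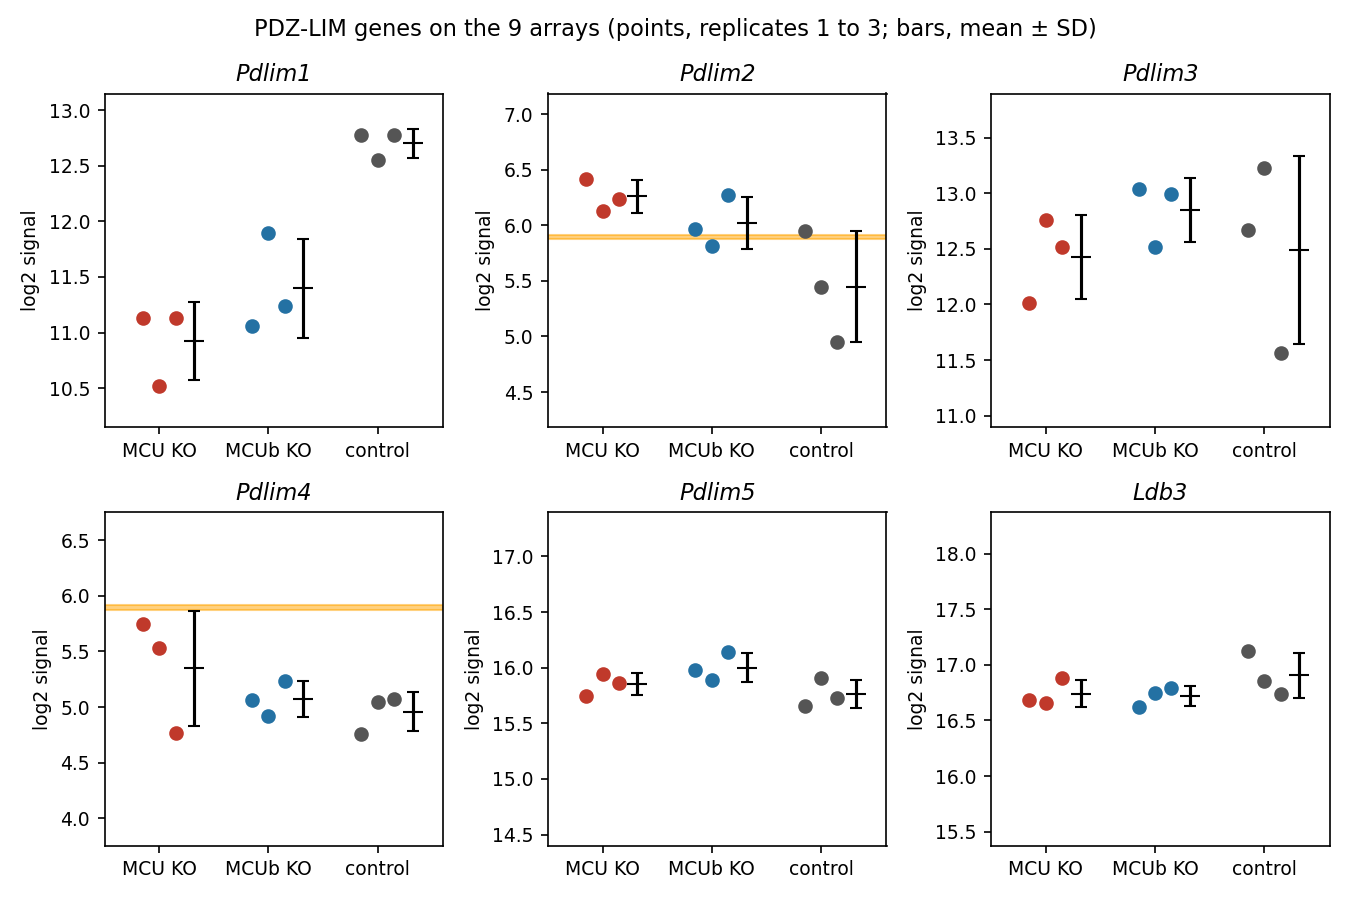
Log2 level of each measured PDZ-LIM gene on each of the 9 arrays, in 1 panel per gene spanning 3 log2 units. Points are arrays, grouped as MCU knockout, MCUb knockout and control, bars give the mean ± SD (n = 3), and the orange band marks the background limits of 5.87 to 5.92. The 6 knockout arrays of Pdlim1 lie below its 3 controls, while the groups of Pdlim3, Pdlim5 and Ldb3 overlap.

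Pdlim2, of the same ALP group, was the only one of the other 5 measured members with an unadjusted p under 0.05 against control in either knockout. It is known in mouse immune cells as a nuclear ubiquitin ligase for STAT4 and the p65 subunit of NF-kappaB. Its probe set, TC1400002333.mm.2 on chromosome 14, read 6.42, 6.13 and 6.24 in MCU knockout. In MCUb knockout it read 5.97, 5.81 and 6.27, against 5.95, 5.45 and 4.95 in control. MCU knockout arrays lay above all controls, as did those of 6.08% of all probe sets, MCUb knockout arrays overlapped them, and the gene was close to the background limit throughout. It exceeded the limit on 3 MCU knockout arrays, 2 MCUb knockout arrays and 1 control array.

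The Pdlim2 difference from control was 0.81 for MCU knockout (SE 0.25, 95% interval 0.26 to 1.36) and did not pass the test over all probe sets (limma, adjusted p = 0.345). For MCUb knockout it was 0.57 (95% interval 0.02 to 1.12, adjusted p = 0.604 by limma). Without control replicate 3, the lowest of its controls, the differences were 0.56 and 0.32 in that order. On arrays of low Y-linked level they were 0.97 and 0.60.

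Pdlim3 encodes ALP, the alpha-actinin-associated LIM protein of the muscle Z-disc. Its probe set, TC0800000521.mm.2 on chromosome 8, read 12.02, 12.76 and 12.51 in MCU knockout and 13.04, 12.51 and 13.00 in MCUb knockout. The controls read 12.67, 13.23 and 11.57 and held both the highest and the lowest value of the 9 arrays. Neither difference from control passed the test, at -0.06 for MCU knockout (95% interval -0.87 to 0.76, adjusted p = 0.973) and 0.36 for MCUb knockout (95% interval -0.45 to 1.18, adjusted p = 0.804). The lowest value came from control replicate 3, without which both differences were negative, at -0.52 and -0.10.

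Pdlim4 encodes RIL, known from actin stress fibres. Its probe set, TC1100002755.mm.2 on chromosome 11, exceeded the background limit on none of the 9 arrays. It read 4.77 to 5.75 in MCU knockout, 4.92 to 5.24 in MCUb knockout and 4.76 to 5.07 in control. No fold is given for it, and adjusted p-values by limma were 0.619 and 0.924 against control.

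The 2 measured members of the Enigma group had strong signal and small spread. Pdlim5, the Enigma homologue ENH, is known to hold protein kinase C at the Z-disc. Its probe set, TC0300003045.mm.2 on chromosome 3, read 15.74, 15.94 and 15.86 in MCU knockout. In MCUb knockout it read 15.98, 15.89 and 16.14, against 15.66, 15.91 and 15.72 in control. The groups overlapped, and the differences from control were 0.09 for MCU knockout (SE 0.17, 95% interval -0.28 to 0.46, adjusted p = 0.886) and 0.24 for MCUb knockout (95% interval -0.13 to 0.61, adjusted p = 0.721).

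Ldb3 encodes ZASP, also called Cypher, whose loss in mice disrupts the Z-line and whose mutations in humans cause myopathy and cardiomyopathy. Its probe set, TC1400001730.mm.2 on chromosome 14, read 16.69, 16.66 and 16.88 in MCU knockout. In MCUb knockout it read 16.62, 16.75 and 16.80, against 17.13, 16.85 and 16.74 in control. The differences from control were -0.16 for MCU knockout (SE 0.18, 95% interval -0.55 to 0.22, adjusted p = 0.776) and -0.18 for MCUb knockout (95% interval -0.57 to 0.20, adjusted p = 0.791). The probe set of Ldb3 stood for 7 RefSeq transcripts and that of Pdlim5 for 9, so a shift between splice forms cannot be read from these values.

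**Figure D2:**
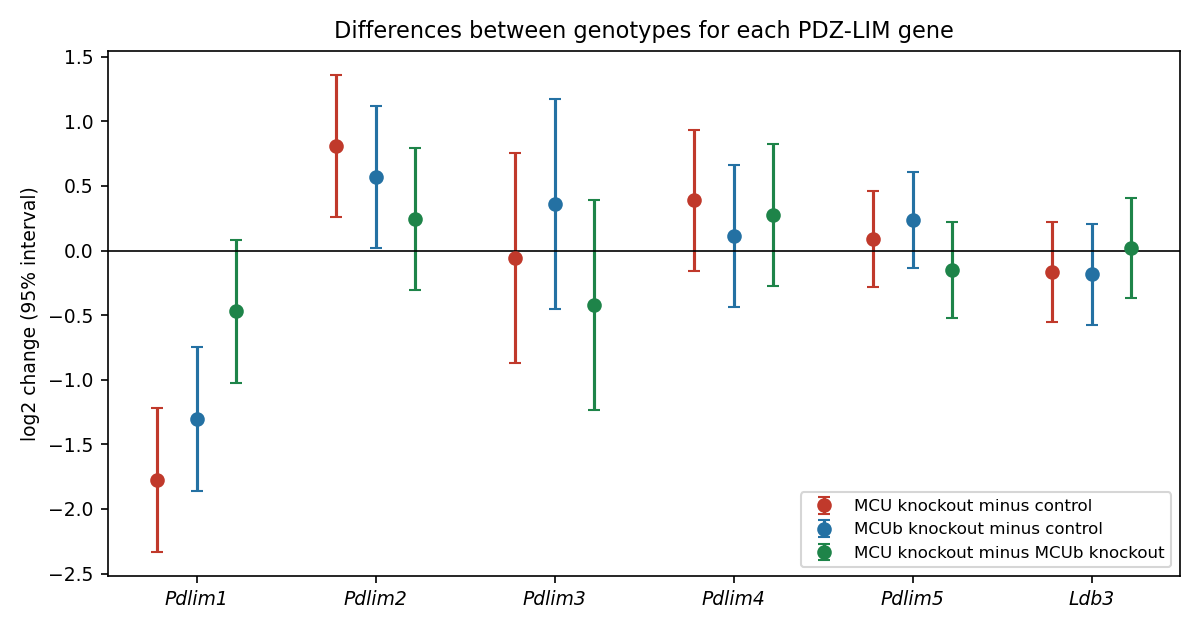
Log2 difference of each measured PDZ-LIM gene for MCU knockout against control, MCUb knockout against control and MCU knockout against MCUb knockout. Points are estimates and bars 95% intervals from limma. Among the members other than Pdlim1, only the intervals of Pdlim2 against control exclude 0, and they lie above it. The Pdlim1 differences from control chose the family and are shown as a description.

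Across the family, the count of members past the adjusted threshold of 0.05 in MCU knockout against control was 1 of 6, where 0.14% of all 22206 probe sets passed and 10.1% had an unadjusted p under 0.05. No member passed in MCUb knockout, where 0.0225% of probe sets did, and 8.11% of probe sets had an unadjusted p under 0.05. The 1 counted was Pdlim1, whose differences from control chose the family, so these counts are no test of it. The other 5 members gave no call in any comparison, and 1 of them, Pdlim2, had an unadjusted p under 0.05 against control in each knockout.

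The direct comparison of MCU with MCUb knockout gave 0 calls among the 6 members by limma, where 0.158% of all probe sets passed, and 0 members had an unadjusted p under 0.05, against 5.7% of all. For the mean of both knockouts against control 0 members passed, where 0.0135% of probe sets did. Of the 5 members above background, the differences between the knockouts ran from -0.47 for Pdlim1 to 0.24 for Pdlim2. Pdlim2 counts as above background through MCU knockout alone, where it was highest, so the upper end is favoured by that filter. Of the 6, 3 were below 0 in MCU knockout against control, where 52.4% of all probe sets were. In MCUb knockout 2 were, against 54% of all probe sets. The median difference of the 5 members other than Pdlim1, with Pdlim4 at background among them, was 0.09 in MCU knockout and 0.24 in MCUb knockout, against -0.02 and -0.03 over all probe sets.

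Being below all controls on all 6 knockout arrays was shared by Pdlim1 with 495 probe sets in all, or 2.23% of those tested. A difference at least as large and negative as that of Pdlim1 in both knockouts was found in 5 probe sets, or 0.0225%, Pdlim1 included. The other 4 were Mybph, a myosin-binding protein, Csrp3, the muscle LIM protein of the Z-disc, Egln3, an oxygen-sensing prolyl hydroxylase, and Lrrc52, a potassium channel subunit. They are named after their values were seen. The cut was set at the Pdlim1 differences that chose the family, so the 0.0225% is a description and no test of Pdlim1. Csrp3 read 13.08, 10.08 and 11.95 in MCU knockout and 9.47, 14.07 and 12.36 in MCUb knockout, against 14.98, 13.86 and 13.52 in control. Its lowest values were those of the 3 arrays of high Y-linked level, and its differences of -2.42 (SE 1.01, adjusted p = 0.471) and -2.15 (adjusted p = 0.619) did not pass. Mybph read 12.99, 10.05 and 9.90 in MCU knockout and 9.11, 12.94 and 13.09 in MCUb knockout, against 13.41 to 13.90 in control, with the low values on the same 3 arrays. Pdlim1 read 10.52, 11.13 and 11.06 on these 3 arrays and 11.13, 11.90 and 11.24 on the knockout arrays of low Y-linked level, which were level or higher but below all controls. The part of the Y-linked level in the Pdlim1 difference was not tested beyond the values given above.

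**Figure D3:**
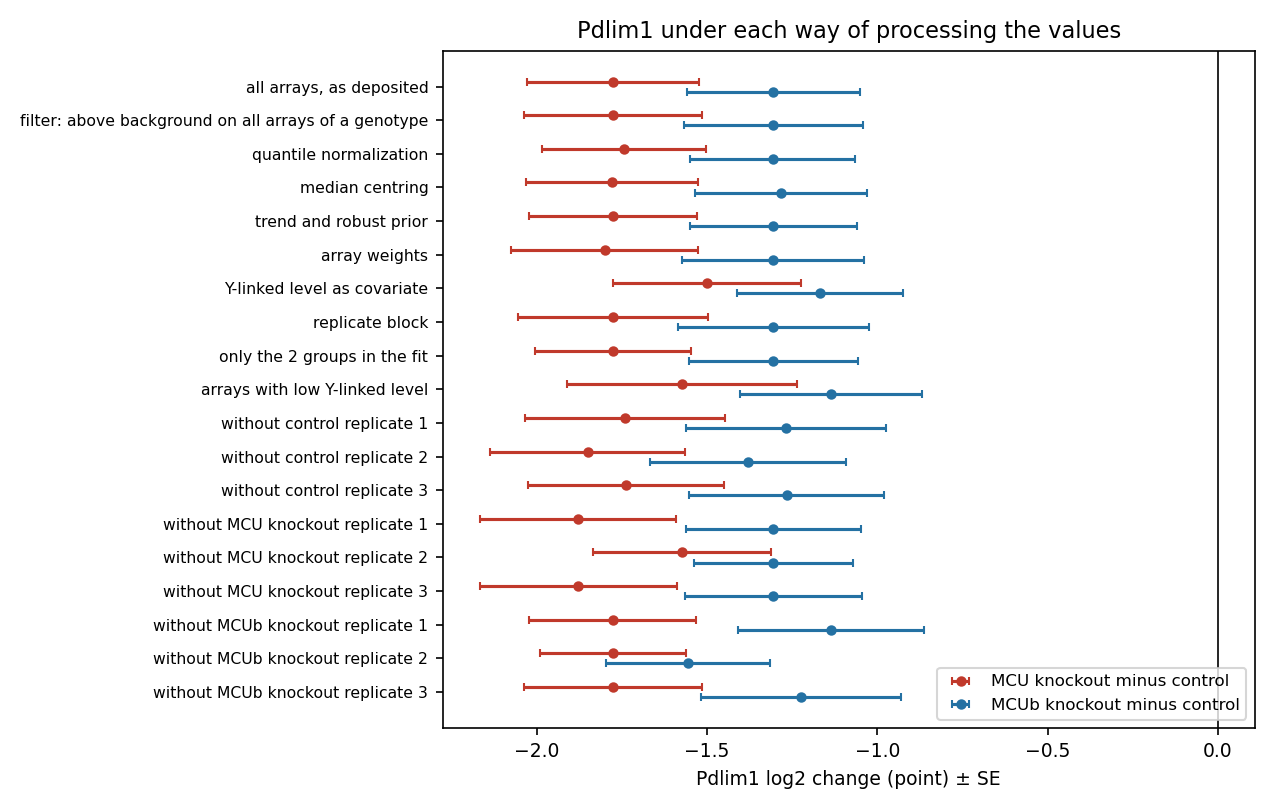
Log2 difference of Pdlim1 from control for MCU knockout and MCUb knockout, as reported and under each other processing of the same values. Points are estimates and bars 1 SE on each side. The estimates stay between -1.88 and -1.50 for MCU knockout and between -1.55 and -1.14 for MCUb knockout.

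The partners to which PDZ-LIM proteins bind at the Z-disc were then described. Of 26 listed Z-disc and alpha-actinin partners, 25 were measured, and 0 passed the adjusted test in either knockout by limma. At an unadjusted p under 0.05, 1 was higher and 4 were lower in MCU knockout, and 2 were higher and 2 lower in MCUb knockout, against 10.1% and 8.11% of all probe sets in either direction. The list's median difference was 0.00 in MCU knockout and 0.01 in MCUb knockout, and 13 of the 25 lay above 0 in each. The muscle alpha-actinins themselves differed from control by -0.67 for Actn2 (adjusted p = 0.525) and 0.15 for Actn3 (adjusted p = 0.786) in MCU knockout. In MCUb knockout they differed by -0.18 and -0.00.

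Xirp1, an actin-binding repeat protein of muscle attachment sites, had the smallest p of that list in both knockouts. It read 9.97, 9.91 and 9.76 in MCU knockout and 9.10, 9.40 and 9.78 in MCUb knockout, against 11.66, 11.77 and 10.50 in control. All 6 knockout arrays lay below the controls, as for 2.23% of all probe sets, and replicate 3 was the lowest control. The differences were -1.43 (SE 0.31, adjusted p = 0.193) and -1.88 (SE 0.31, adjusted p = 0.163). Without control replicate 3 they were -1.84 (adjusted p = 0.0139) and -2.29 (adjusted p = 0.00936), both past the threshold. Of 18 other settings, Xirp1 passed in 1 for MCU knockout and in 2 for MCUb knockout.

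Filamin C, Flnc, an actin crosslinker of the Z-disc, read 9.90, 9.27 and 9.73 in MCU knockout. In MCUb knockout it read 9.70, 10.03 and 9.60, against 10.57, 10.40 and 10.16 in control. Every knockout array lay below all controls, as for 2.23% of all probe sets, but the differences of -0.74 (adjusted p = 0.341) and -0.60 (adjusted p = 0.558) did not pass. Synm, the intermediate filament protein synemin, differed by 1.12 in MCU knockout (adjusted p = 0.363) and 1.02 in MCUb knockout (adjusted p = 0.548). Myoz1, calsarcin-2, differed by 0.00 and -0.10, and Tcap, telethonin, by 0.11 and 0.20, none past the threshold.

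Of 43 other LIM domain genes, 42 were measured, of which 29 were above background on all arrays of a genotype, and 0 passed in either knockout. At an unadjusted p under 0.05, 5 were higher and 5 lower in MCU knockout, and 2 were higher and 3 lower in MCUb knockout, where the shares of all probe sets were 10.1% and 8.11%. The list shares Csrp3 and Nebl with the Z-disc list. Its medians were -0.11 in MCU knockout and -0.10 in MCUb knockout, against -0.02 and -0.03 over all probe sets. Mical2, which oxidises actin and promotes disassembly of filaments, read 12.40, 11.01 and 11.19 in MCU knockout and 12.03 to 12.56 in MCUb knockout, against 12.76 to 12.99 in control. Its differences were -1.31 (adjusted p = 0.251) and -0.54 (adjusted p = 0.671). Without MCU knockout replicate 1 the first was -1.74 (adjusted p = 0.0160), which leaves the 2 arrays of high Y-linked level in that group against controls of low level. Limd1, a LIM protein of focal adhesions, differed between MCU and MCUb knockout by -1.21 and did not pass (adjusted p = 0.304).

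Non-muscle alpha-actinins and the actin cytoskeleton of other cells, where Pdlim1 is also found, were represented by 21 measured genes of 24. None passed, and at an unadjusted p under 0.05 there were 2 higher and 2 lower in each knockout. The shares of all probe sets in either direction were 10.1% in MCU knockout and 8.11% in MCUb knockout. The list's median was -0.17 in MCU knockout and 0.12 in MCUb knockout, against -0.02 and -0.03 over all probe sets. Actn4 differed from control by -0.33 in MCU knockout (adjusted p = 0.674) and -0.77 in MCUb knockout (adjusted p = 0.534). Actn1 lay above background on 0, 1 and 1 arrays of MCU knockout, MCUb knockout and control. Myh10, a non-muscle myosin heavy chain, differed by -1.45 (adjusted p = 0.283) and -0.87 (adjusted p = 0.594).

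Kinases, the ubiquitin ligase substrates and other binding partners of the family formed a list of 16 genes, all measured. None passed, and at an unadjusted p under 0.05 there were 0 in MCU knockout and 1, higher, in MCUb knockout. Of all probe sets, 10.1% and 8.11% were in the same order. Stk35, the partner kinase of Pdlim1, differed by -0.43 in MCU knockout (adjusted p = 0.507) and 0.19 in MCUb knockout (adjusted p = 0.811). Prkca, a protein kinase C isoform, differed by 0.12 and -0.05. Of the 23 measured targets of serum response factor among cytoskeletal genes, 0 passed. At an unadjusted p under 0.05, 1 was higher and 1 lower in each knockout, against the same 10.1% and 8.11% of all probe sets. The medians were -0.00 in MCU knockout and 0.04 in MCUb knockout.

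Fibre type lists were read beside the family because sarcomere proteins differ between fibre types. Among 12 slow and IIa fibre genes 0 passed, with 2 higher and 3 lower at an unadjusted p under 0.05 in MCU knockout and 0 in MCUb knockout, where 10.1% and 8.11% of all probe sets were. The list's medians were 0.12 and -0.18. The lower ones were Casq2, a calsequestrin, at -2.32 (adjusted p = 0.204), Myh2, the IIa myosin heavy chain, at -2.09 (adjusted p = 0.349) and Myl2, a slow myosin light chain, at -2.00 (adjusted p = 0.361). The higher ones were Tnnt1, slow troponin T, at 0.60 (adjusted p = 0.480) and Atp2a2, a calcium pump of slow fibres, at 0.59 (adjusted p = 0.436). Myh2 read 13.44, 13.96 and 14.27 on the 3 arrays of high Y-linked level, against 15.47 to 16.90 on the other knockout arrays and 16.01 to 16.63 in control. Casq2 likewise read 9.12, 8.24 and 9.89 on these 3 arrays, against 10.43 to 11.67 on the other knockout arrays and 11.43 to 11.68 in control. The 14 fast fibre genes had medians of 0.15 and 0.11, and 0 had an unadjusted p under 0.05 in either knockout. The part of fibre type in the Pdlim1 difference was not tested.

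**Figure D4:**
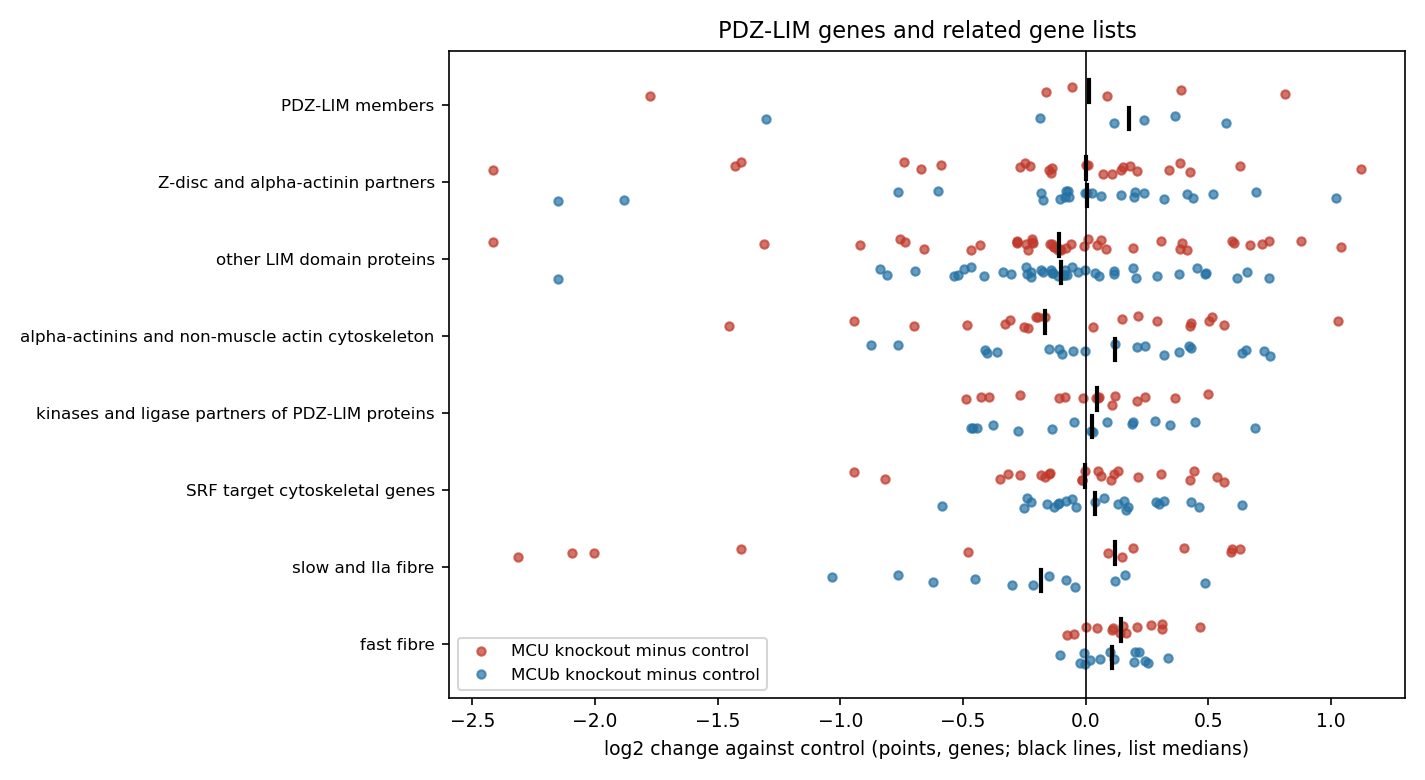
Log2 difference from control of every measured gene of the PDZ-LIM family and of 7 related gene lists. Points are genes, with MCU knockout above MCUb knockout in each row, and black lines are list medians. The medians of the 7 lists lie between -0.18 and 0.15, and Pdlim1 is the family's lowest point in both knockouts.

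Markers of other cells that hold Pdlim1 were set beside it. The summed log2 signal of 9 smooth muscle markers was 16.8 to 16.9 in MCU knockout, 17.0 in MCUb knockout and 16.9 to 17.0 in control. Des and Synpo2, also on the Z-disc list, are among these markers. Des had means of 16.30, 16.36 and 16.44 and Synpo2 of 15.05, 15.42 and 14.98 in that order. Most of the sum came from these genes, so it does not measure smooth muscle content. The summed log2 signal of 9 measured endothelial markers was 13.0 to 13.2 in MCU knockout, 12.2 to 13.0 in MCUb knockout and 12.6 to 13.8 in control. The 6 pericyte markers summed to 12.9 to 13.1 in MCU knockout, 13.1 to 13.4 in MCUb knockout and 13.3 to 13.8 in control, so that MCU knockout lay below control and MCUb knockout overlapped it. The 8 measured macrophage and neutrophil markers summed to 10.9 to 11.5, 11.0 to 12.1 and 11.7 to 12.3 in that order, with MCU knockout again below control. Of these 8, 4 were above background on all arrays of a genotype. In MCU knockout 4 were higher and 4 lower than control, with 2 higher and 0 lower at an unadjusted p under 0.05 (limma). The lowest difference was -2.08, so the sum does not speak for the list. Of the 6 pericyte markers, 3 were higher and 3 lower in MCU knockout, with 0 higher and 2 lower at an unadjusted p under 0.05 (limma). In MCUb knockout all 6 were lower, where 54% of all probe sets were, and 0 had an unadjusted p under 0.05. The 5 measured adipocyte markers summed to 16.99 to 17.29 in MCU knockout, 16.73 to 17.02 in MCUb knockout and 17.29 to 17.34 in control, with Plin1 and Lep at background. Only 1 of these 5 was above background on all arrays of a genotype, so the sum says little about the rest. In this sum all 6 knockout arrays lay below all controls, by a narrow margin in MCU knockout. Pdlim1 did so too, as did 2.23% of all probe sets. Over all 13 marker lists, 0 of 85 measured markers passed in either knockout by limma, with 8 at an unadjusted p under 0.05 in MCU knockout and 5 in MCUb knockout, where 10.1% and 8.11% of all probe sets were. The part of these cells in the Pdlim1 difference was not tested. None of the 6 epithelial and 5 satellite cell markers was above background on all arrays of a genotype.

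The genes beside each member on its chromosome were read in RefSeq order, 3 on each side. Of these 36 neighbours, 1 passed in MCU knockout against control, where 0.14% of all probe sets did, and 0 passed in MCUb knockout or between the knockouts (limma). At an unadjusted p under 0.05 there were 2 in MCU knockout, 4 in MCUb knockout and 3 between the knockouts, against 10.1%, 8.11% and 5.7% of all probe sets. The one that passed was Entpd1, the third gene after Pdlim1 on chromosome 19, which encodes the ectonucleotidase CD39 that hydrolyses extracellular ATP. Its probe set, TC1900000572.mm.2, read 7.35, 7.41 and 7.97 in MCU knockout and 7.91, 7.54 and 8.04 in MCUb knockout, against 9.22, 8.72 and 9.40 in control. As with Pdlim1 and 2.23% of all probe sets, all 6 knockout arrays lay below all controls.

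Entpd1 fell by 1.54 in MCU knockout (SE 0.25, adjusted p = 0.0458 by limma), or 2.90-fold. In MCUb knockout the difference was -1.29 (SE 0.25, adjusted p = 0.260), and between the knockouts it was -0.25 (95% interval -0.80 to 0.29). The call in MCU knockout was close to the threshold and was kept in 5 of 18 other settings, with differences between -1.76 and -1.39. Of the 9 fits that each left out 1 array, it was kept without control replicate 2. It was lost without control replicates 1 and 3 (adjusted p = 0.205 and 0.136), without MCU knockout replicates 1, 2 and 3 (0.111, 0.207 and 0.0517) and without MCUb knockout replicates 1, 2 and 3 (0.0949, 0.0700 and 0.0784).

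Between Pdlim1 and Entpd1 lie Aldh18a1, an enzyme of proline synthesis, and Tctn3, a protein of the cilium base. Aldh18a1 differed from control by 0.09 in MCU knockout (adjusted p = 0.930) and 0.35 in MCUb knockout (adjusted p = 0.738). Tctn3 and the 3 cytochrome P450 genes on the other side, Cyp2c70, Cyp2c50 and Cyp2c54, were not above background on all arrays of any genotype. The Mcu gene lies on another chromosome, 10. Sorbs2, which neighbours Pdlim3 and encodes a Z-disc adaptor, differed by 1.03 in MCU knockout (adjusted p = 0.380) and 0.75 in MCUb knockout (adjusted p = 0.619).

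**Figure D5:**
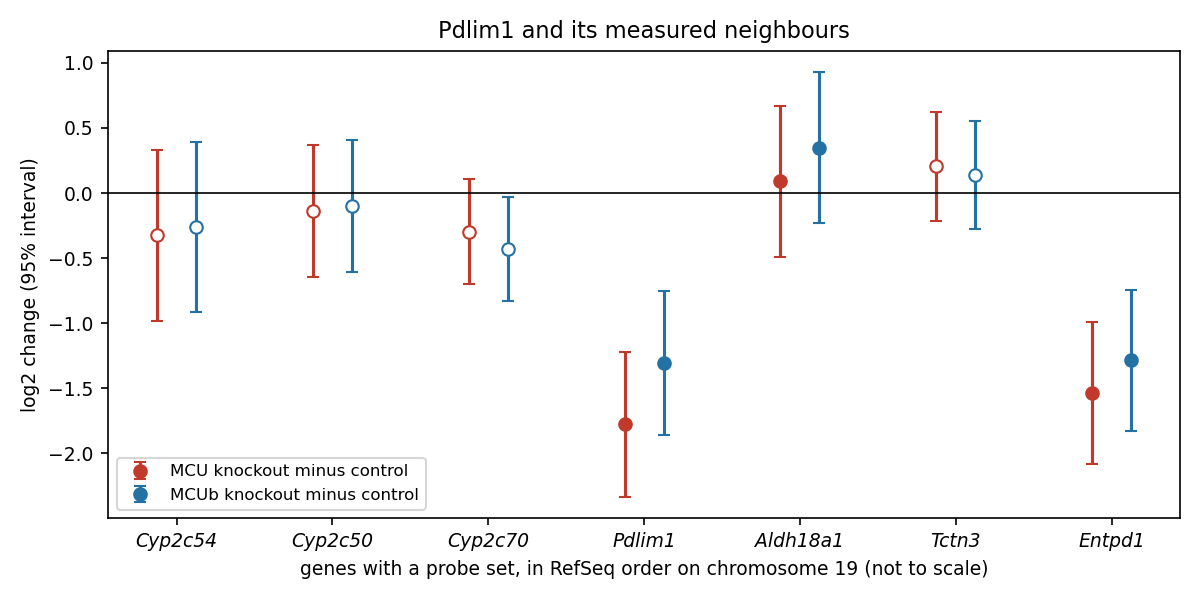
Log2 difference from control of Pdlim1 and its 3 measured neighbours on each side, in RefSeq order on chromosome 19. Points are estimates and bars 95% intervals, and open points mark genes not above background on all arrays of any genotype. Pdlim1 and Entpd1 lie below 0 in both knockouts, and Aldh18a1 between them does not.

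The genes whose levels followed Pdlim1 most closely over the 9 arrays were searched among 8709 named genes above background. The highest Pearson correlations were those of Tmem94 (0.96), Srsf11 (0.95), Eci1 (0.94), Atf6b (0.93), Flnc (0.93), Stat3 (0.92), Yif1b (0.92) and Idua (0.92). The lowest were those of Il17b (-0.97), Fbln7 (-0.94), Ska2 (-0.94) and Boc (-0.94). These points share arrays and genotypes, and the ranking describes 9 arrays only. Since Pdlim1 set all knockout arrays apart from all controls, genes picked by correlation with it tend to do so as well. Their differences from control are therefore a description and no test.

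Among these, Flnc is the Z-disc protein described above, and Stat3 is a transcription factor of cytokine signalling. Stat3 read 10.93, 10.53 and 10.86 in MCU knockout and 10.48, 10.94 and 11.04 in MCUb knockout, against 11.99, 11.56 and 11.62 in control. All 6 knockout arrays lay below the controls, as for 2.23% of all probe sets and as its choice by correlation with Pdlim1 favours. The differences were -0.95 (adjusted p = 0.204) and -0.90 (adjusted p = 0.469). Eci1, a mitochondrial enzyme of fatty acid oxidation, differed by -0.67 (adjusted p = 0.352) and -0.37 (adjusted p = 0.653). Boc, a cell surface receptor known from myogenic differentiation, ran opposite to Pdlim1 and differed by 0.83 (adjusted p = 0.274) and 0.71 (adjusted p = 0.530). Ska2, a protein of the mitotic spindle, also ran opposite. Its adjusted p passed the threshold in MCU knockout, but it was picked for its correlation with Pdlim1. It entered the search only through the knockout arrays. It read 6.53, 6.67 and 6.39 in MCU knockout and 6.17, 6.24 and 6.25 in MCUb knockout, against 5.26, 5.10 and 5.05 in control, where no array was above background. It was at least 1.55-fold higher in MCU knockout (adjusted p = 0.00500), the fold being taken against the background limit, and at least 1.25-fold higher in MCUb knockout (adjusted p = 0.127). The log2 difference in MCU knockout, with controls at background, was 1.39. With a Y-linked covariate it was 1.42 (adjusted p = 0.0583 by limma). On arrays of low Y-linked level, where only replicate 1 of MCU knockout remained, it was 1.40.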

How the data were processed

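Total RNA of flash-frozen muscle was extracted with Trizol, checked on a Bioanalyzer and labelled with a 3' IVT Pico kit for Affymetrix Clariom S mouse arrays, per the labels' protocols. Per the submitters' processing notes, the authors made the deposited table of expression values with Affymetrix Expression Console. How the program summarised and normalized the probes, its version and the log base are not given in the sources used here. The deposited values, 2.46 to 19.9, were taken to be log2, and each fold depends on that.

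Control features, 6640 of the 28846 values per array, were removed. The platform annotation named 19572 of the other 22206 probe sets with 1 gene symbol and 2634 with none. Where a gene had several probe sets (55 genes, 0 of them in the family), the one with the highest mean was kept. The array's build was not named, so RefSeq tables of GRCm38.p6 gave names, chromosomes, neighbour order and promoters only.

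A linear model of 3 genotype means over all 9 arrays was fitted in R 4.3.3 with limma 3.58.1 (moderated two-sided tests, 6 residual and 5.06 prior degrees of freedom). P-values were adjusted (Benjamini-Hochberg) over 22206 probe sets, and 0.05 was the threshold. Family and lists were chosen with earlier results of these data known. Named genes are the members, the 8 genes most and 4 least correlated with Pdlim1 (3 most for other members), 3 neighbours on each side, and up to 3 genes of smallest p per list and comparison. Actn2, Actn3, Myoz1, Tcap, Prkca, Csrp3, Mybph, Lrrc52 and Egln3 were named outside this rule. The number of arrays limits the precision. The other settings are given with the limits. Tables and figures were made with Python 3.11.15, pandas 2.3.3 and matplotlib 3.10.9, and the fit was tested on simulated data.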

Additional observations from a re-analysis of the deposited data

How the results depend on the processing

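Pdlim1 kept a negative difference from control in all 18 other settings for each knockout, between -1.88 and -1.50 in MCU knockout (-1.88 to -1.57 when 1 array was left out) and between -1.55 and -1.14 in MCUb knockout. Counts of members called include Pdlim1, whose differences from control chose the family, and are given as a description of the settings. The count of 1 member called in MCU knockout was 0 with a Y-linked covariate, 0 with a replicate block and 0 on arrays of low Y-linked level, and 0 to 1 when 1 array was left out. For the mean of both knockouts the main count was 0 members. It was 1 with the filter on dim probe sets, 1 with an intensity trend and robust prior, and 0 to 1 when 1 array was left out. The member counted was Pdlim1 in each case. The other 5 members had no call in any setting, over 351 values, of which 2 moved by more than 1 SD, both of Pdlim4 on arrays of low Y-linked level.

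Of all probe sets, 31 passed in MCU knockout: 16 with the Y-linked covariate, 0 on arrays of low Y-linked level, and 20 to 98 when 1 array was left out. In MCUb knockout 5 passed: 1 with only the 2 groups in the fit, 0 on arrays of low Y-linked level, and 0 to 20 when 1 array was left out. Between the knockouts 35 passed: 61 with array weights, 3 on arrays of low Y-linked level, and 13 to 43 when 1 array was left out. For the mean of both knockouts 3 passed: 8 with the filter, 6 with median centring, 14 with trend and robust prior, 6 with array weights, 1 with the Y-linked covariate, 0 with the replicate block, 0 on arrays of low Y-linked level, and 0 to 188 when 1 array was left out (188 without control replicate 2). The cause was not tested. Replicate numbers did not pair the samples: deviations of same-numbered arrays correlated at -0.12 to 0.09, as did those of other numbers (-0.12 to 0.09). With the replicate block 24 probe sets passed in MCU knockout, 5 in MCUb knockout and 28 between the knockouts. Another probe set per gene could not be tried, since each member had 1. For the other named genes, 6188 of 6270 values under other settings stayed within 1 SD or on their side of the threshold, and 0 reversed.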

Other observations

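How the members varied together over the 9 arrays is given as a description, since they share arrays and genotypes. Pdlim1 and Ldb3 had a Pearson correlation of 0.59 over the 9 arrays, and 0.33 after each genotype's mean was subtracted. Pdlim1 and Pdlim2 had -0.75, and -0.07 after subtraction. Pdlim3 and Pdlim5, both Z-disc proteins of muscle, had 0.65, and 0.63 after subtraction. Pdlim2 and Ldb3 had -0.04, and 0.74 after subtraction.

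The genes that followed the other members most closely differed from those of Pdlim1. For Pdlim5 they were Ehhadh (0.95), a peroxisomal enzyme of fatty acid oxidation, Cep20 (0.94) and Slc6a20b (0.90). For Ldb3 they were Ptprg (0.94), a receptor tyrosine phosphatase, Borcs8 (0.91) and Ppp2r1b (0.90). For Pdlim3 they were Itgb3bp (0.94), Cmbl (0.92) and Zbtb14 (0.92), and for Pdlim2 Fubp3 (0.93), Htt (0.91) and Phlda1 (0.91). Pdlim4, at background on all arrays, is left out.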
